A study of Mus musculus with 8 samples.

Results

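Collagen genes, the family that encodes the chains of the main matrix proteins, were followed in inguinal white fat of mice lacking the receptor LPA4. Members were all genes whose symbol reads Col, a number, a, a number, on probe sets annotated with exactly 1 gene symbol; 42 of the 18193 genes and 82 of the 45101 probe sets met this. Each gene took the value of its probe set with the highest mean over the 8 arrays. The mice were male littermates on a C57BL/6 background, aged 12 weeks and fed standard chow: 4 LPA4-KO mice (Lpar4 -/Y, lacking the X-linked receptor for lysophosphatidic acid) and 4 wild-type (WT) mice, with 1 array for each mouse. How the Lpar4 allele was made is not given in the sources used here, and the labels name no cell type to which the deficiency is limited. Values are log2 signals from a 3' expression array, and differences are LPA4-KO minus WT on that scale. The log2 of the summed signal of 8 adipocyte genes ran from 15.68 to 15.75 in LPA4-KO and from 15.56 to 15.61 in WT. That of 12 skeletal muscle genes ran from 10.49 to 13.87 over the arrays, so the muscle content of the samples differed. Of 7 epithelial keratin and adhesion genes 0 varied between arrays. Because 71.6% of all genes did not vary either, this cannot show whether epithelium was present.

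Collagens are proteins wound from 3 chains, each built on a repeat that starts with glycine, so that a working molecule depends on matched supplies of its partner chains. Fibrillar collagens form the banded fibres of connective tissue. Type IV collagens form the sheet-like network of basement membranes, which in fat surrounds every adipocyte as well as vessels, nerve fibres and smooth muscle cells. Type VI collagen forms beaded filaments next to these membranes and is abundant in fat. FACIT collagens sit on the surface of fibrils, and the rest include short network formers, membrane-spanning chains and anchoring fibrils. By these roles the 42 genes were 11 fibrillar, 8 basement membrane (6 type IV chains with Col15a1 and Col18a1), 5 type VI, 9 FACIT and 9 other collagens.

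Type IV genes held all the collagen genes called lower among varying genes in LPA4-KO fat: 4 of the 5 varying type IV genes passed as lower, beside 12.2% of all varying genes. By their gene values, 0 fibrillar and 0 type VI genes passed in limma there, beside 27.1% of all varying genes. At an unadjusted limma p under 0.05 there were 0 of either class, beside 2254 of the 5173 varying genes. A second, dim probe set of the fibrillar gene Col11a1 passed as lower among varying probe sets. Col4a3, which was dim in LPA4-KO, and Col4a4 stood at 0.60 and 0.65 of WT on the probe sets that stand for them. Their other varying probe sets differed by -0.21 for Col4a3, where it was dim in both genotypes, and by -0.77 for Col4a4. Over all genes both calls ended when any 1 array other than WT 3 was left out. Col4a1 and Col4a2, the chains of the ubiquitous basement membrane network, stood at 0.76 and 0.75 of WT on the probe sets that stand for them, with no overlap between the genotypes. A second Col4a1 probe set differed less (-0.15) and overlapped. In the opposite direction, the FACIT gene Col14a1 stood at 1.82 times and Col15a1, with overlapping groups, at 1.39 times the WT level. Without WT 3 the Col14a1 difference fell from 0.86 to 0.63. Over all genes Col4a1, Col4a2, Col14a1 and Col15a1 did not pass (limma adjusted p from 0.0639 to 0.103). They passed among varying genes, but with the replicate number as a block Col14a1 and Col15a1 did not (0.0605 and 0.0732). In a whole tissue, fewer cells of a type and less RNA per cell cannot be told apart.

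**Figure D1:**
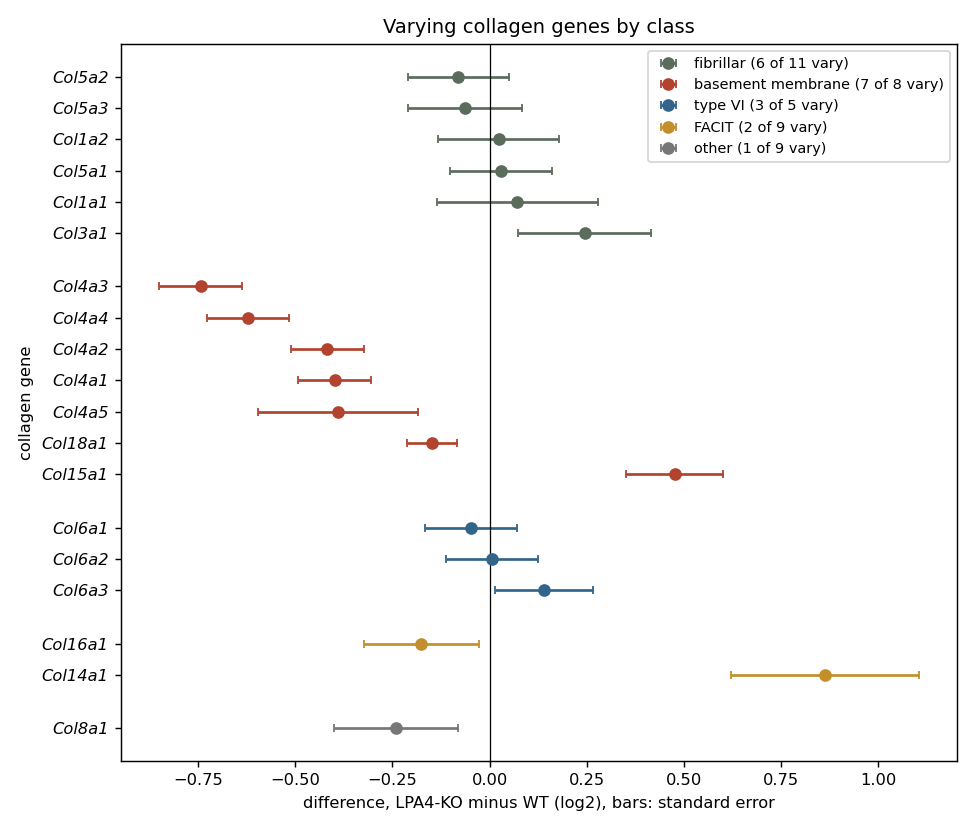
Difference between LPA4-KO and WT (log2, x axis) for each of the 19 collagen genes that varied between arrays, grouped by class, with bars of 1 standard error from the fit over all genes (n = 4 mice each). The 5 varying type IV genes lie left of 0, between -0.74 and -0.39, the fibrillar and type VI genes lie between -0.08 and 0.24, and Col14a1 lies farthest right at 0.86.

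The test was limma's moderated test, two-sided, fitted on all 18193 genes with Benjamini-Hochberg adjustment and a threshold of 0.05. In that fit 3 of 42 collagen genes passed, all lower, beside 1.64% of all genes lower and 2.39% higher (4.03% together). The 3 were Col4a3, Col4a4 and Col23a1, and Col23a1, a membrane-spanning collagen, differed by only -0.000403. It belongs to the near-constant genes, whose SD over the 8 arrays was under 0.01: these were 23 of the 42 collagen genes (54.8%), against 71.6% of all genes. The largest difference among the 23 was 0.000660. Among the 5173 varying genes alone, 4 of 19 collagen genes passed as lower, beside 12.2% of all varying genes, and 2 passed as higher, beside 14.9%. Both directions together, 6 of 19 passed, beside 27.1% of all varying genes, so the family as a whole was called about as often as other varying genes, and the pattern lies in which members were called.

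Replicate numbers 1 to 4 occur in both genotypes and met the rule for treating them as pairs. With the replicate number as a block 0 of 18193 genes passed in limma, although 10 collagen genes and 3703 genes in all had an unadjusted p under 0.05. Among varying genes the block left 4 of 19 collagen genes passing, all lower (beside 9.24% of varying genes lower, 10.3% higher and 19.5% together), and these were Col4a1, Col4a2, Col4a3 and Col4a4. With numbers 1 and 2 against 3 and 4 as a term over all genes, 1 collagen gene, Col4a3, passed as lower, beside 1.08% of all genes lower, 1.63% higher and 2.71% together. The 4 against 4 mice allow a smallest two-sided exact permutation p of 0.0286. The median difference of the varying collagen genes was -0.06, against 0.01 for all varying genes.

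The chains of Col4a1 and Col4a2 assemble into one molecule, and their genes lie head to head on mouse chromosome 8. Their promoter windows are shown because these neighbours moved by nearly the same amount on the probe sets that stand for them. A second Col4a1 probe set differed less (-0.15) and overlapped, so equal movement of the 2 genes is not established. Each window, from RefSeq's GRCm38.p6 annotation, holds 250 bases before and 50 after the start site, at chr8:11312777-11313076 on the minus strand for Col4a1 and chr8:11312555-11312854 on the plus strand for Col4a2. Capitals mark the 78 bases, chr8:11312777-11312854, that the windows share and that are read here from opposite strands.
Col4a1: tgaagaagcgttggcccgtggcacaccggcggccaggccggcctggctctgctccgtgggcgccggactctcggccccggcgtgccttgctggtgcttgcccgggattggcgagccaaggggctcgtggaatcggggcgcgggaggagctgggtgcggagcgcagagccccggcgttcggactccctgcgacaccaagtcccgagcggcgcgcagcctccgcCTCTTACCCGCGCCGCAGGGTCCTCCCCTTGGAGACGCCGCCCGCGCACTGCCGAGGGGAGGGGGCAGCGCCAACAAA
Col4a2: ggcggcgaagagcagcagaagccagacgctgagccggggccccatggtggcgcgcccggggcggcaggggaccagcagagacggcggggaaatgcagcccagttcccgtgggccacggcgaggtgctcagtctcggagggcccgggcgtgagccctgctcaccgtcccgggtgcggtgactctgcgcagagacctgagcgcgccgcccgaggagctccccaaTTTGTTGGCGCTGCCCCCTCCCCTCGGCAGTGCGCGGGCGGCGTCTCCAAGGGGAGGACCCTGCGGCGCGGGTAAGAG
The start sites used lie 21 bases apart. The shared stretch holds a GC box (GGGCGG) and a CT-rich element (CCCTCCCC), searched on both strands and not overlapping each other. A GC box was in 35.7% and the CT-rich element in 10.8% of all 32851 windows of this length, and in 4 and 3 of the 5 type IV windows at hand. The matches in the shared stretch count in both the Col4a1 and the Col4a2 window, so these windows are not independent. CCAAT was found in both windows shown and in 37.4% of all windows. TATAAA (13.6% of all windows) and GGAATG, the letters of a TEAD binding element (14.7%), were in neither. A match is only a match of letters. Of the 42 collagen genes 33 had a window.

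Col4a1 had signals of 11.49, 11.88, 11.67 and 11.70 in LPA4-KO mice 1 to 4, against 11.94, 12.09, 12.09 and 12.21 in WT mice 1 to 4. Every LPA4-KO value lay below every WT value, and the gap was narrowest between LPA4-KO 2 and WT 1. The means were 11.68 ± 0.16 in LPA4-KO and 12.08 ± 0.11 in WT (SD, n = 4 each), a difference of -0.40 ± 0.09 (SE, limma adjusted p = 0.0713 over all genes). In the fit on varying genes the limma adjusted p was 0.0196, and 0.0299 with the replicate block. Its other varying probe set differed by -0.15, overlapped and did not pass (limma adjusted p = 0.106 among varying probe sets).

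Col4a2 had 10.65, 11.09, 10.84 and 10.87 in LPA4-KO, against 11.19, 11.28, 11.32 and 11.33 in WT. The genotypes again did not overlap, and in LPA4-KO the arrays stood in the same order as for Col4a1, with mouse 1 lowest and mouse 2 highest. The difference was -0.42 ± 0.09 (SE, limma adjusted p = 0.0639 in the fit on all genes, 0.0172 in that on varying genes and 0.0318 there with the replicate block). The spread was 0.18 in LPA4-KO and 0.06 in WT (SD, n = 4 each).

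Col4a3 and Col4a4 encode chains that join with the Col4a5 chain in a more specialised network, best known from the kidney glomerulus. These genes are neighbours on chromosome 1, where their annotated spans overlap by 114 bases, as those of Col4a1 and Col4a2 do by 85. Col4a3 had 6.22, 6.34, 6.12 and 6.38 in LPA4-KO, against 6.95, 7.13, 6.78 and 7.18 in WT. The groups did not overlap, and mouse 3 was the lowest in both. The difference was -0.74 ± 0.11 (SE, limma adjusted p = 0.0280 over all genes). In the fit on varying genes the limma adjusted p was 0.00541, or 0.0148 with the replicate block. The block over all genes ended the call (limma adjusted p = 0.0619). In LPA4-KO its mean ranked at percentile 24.1 among probe sets, so Col4a3 was dim there and the size of its difference is not exact.

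Col4a4 had 7.33, 7.70, 7.53 and 7.59 in LPA4-KO, against 8.24, 8.23, 7.93 and 8.24 in WT. The groups did not overlap, and WT 3 lay apart from the other WT mice. The difference was -0.62 ± 0.11 (SE, limma adjusted p = 0.0369 in the fit on all genes, 0.00854 in that on varying genes). With the replicate block the limma adjusted p was 0.132 over all genes, which ended the call, and 0.0266 among varying genes. Over all genes, leaving out any 1 array other than WT 3 ended the calls of both Col4a3 (limma adjusted p up to 0.0845) and Col4a4 (up to 0.105). Each of Col4a1 to Col4a4 had an exact permutation p of 0.0286, the smallest this design can give.

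Col4a5, the X-linked partner of these chains, ran from 7.42 to 7.86 in LPA4-KO and from 7.48 to 8.30 in WT. The overlap came from WT 3, the only WT mouse under 8.15. The difference of -0.39 ± 0.21 (SE) did not pass over all genes (limma adjusted p = 0.322) or among varying genes (0.143). Without WT 3 it was -0.58, and the limma adjusted p was 0.0845 in the fit on all genes and 0.0200 in that on varying genes. Its neighbour Col4a6 was near constant. Groups that did not overlap with LPA4-KO lower were found for 4 of 19 varying collagen genes, beside 15.0% of all varying genes, and those 4 were again Col4a1 to Col4a4.

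**Figure D2:**
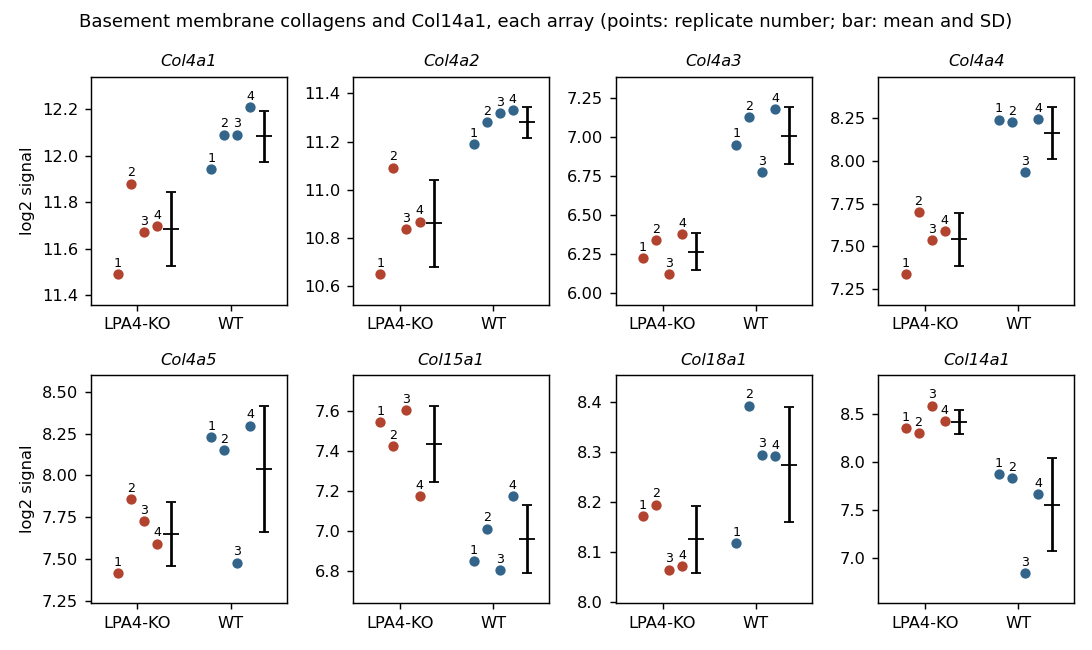
Log2 signal (y axis) of 7 basement membrane collagen genes and of the FACIT gene Col14a1 in every array, LPA4-KO left and WT right in each panel. Points carry the replicate number and the bar to the right of each group is its mean and SD (n = 4). The groups are apart for Col4a1, Col4a2, Col4a3, Col4a4 and Col14a1. WT 3 lies at the bottom of the WT group for Col4a3, Col4a4, Col4a5, Col15a1 and Col14a1.

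The other basement membrane collagens, Col15a1 and Col18a1, are multiplexins, proteoglycan collagens that tie basement membranes to the matrix beneath and whose ends give the fragments restin and endostatin. Col15a1 was higher and Col18a1 lower in LPA4-KO by their means. Col15a1 had 7.54, 7.42, 7.61 and 7.18 in LPA4-KO, against 6.85, 7.01, 6.80 and 7.18 in WT. The groups touched only through mouse 4 of each genotype, which had the same rounded value. The difference of 0.48 ± 0.12 (SE) missed the threshold over all genes (limma adjusted p = 0.0878) and passed among varying genes (0.0236), but not there with the replicate block (0.0732). Col18a1 ran from 8.07 to 8.20 in LPA4-KO and from 8.12 to 8.39 in WT, a difference of -0.15 that missed the threshold throughout (limma adjusted p = 0.239 in the fit on all genes, 0.129 in that on varying genes). A second Col18a1 probe set differed by -0.24 with overlapping groups. The first, like those used for Col1a2, Col3a1, Col6a2, Col12a1, Col14a1 and Col16a1, carries a suffix for probes that can match more than 1 transcript.

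By gene value, 0 of 11 fibrillar collagens passed in limma in any of the 4 fits over all or varying genes, with or without the block. The Col11a1 value is that of a near-constant probe set, and another of its probe sets passed as lower (-0.49, described with the probe sets). At an unadjusted limma p under 0.05, 0 of 11 passed over all genes, beside 4172 of 18193 genes. With the block over all genes 1 did, beside 3703 of 18193. Of the 11, 6 varied, with a median difference of 0.03 over those 6. Type I collagen, the main fibre of connective tissue, is built from Col1a1 and Col1a2. Col1a1 had 8.14, 8.44, 8.25 and 8.08 in LPA4-KO, against 8.05, 8.49, 7.64 and 8.44 in WT. Col1a2 had 12.31, 12.62, 12.50 and 12.47 in LPA4-KO, against 12.42, 12.75, 12.06 and 12.57 in WT. In both genes the WT mice stood in the order 3, 1, 4, 2 from low to high and spread across the whole LPA4-KO range. The differences were 0.07 (95% confidence interval -0.43 to 0.57) and 0.02 (-0.36 to 0.40), so changes of up to about this size in either direction are not detectable here.

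Col3a1, which makes the thin fibrils of soft tissues, had 12.37, 12.53, 12.35 and 12.34 in LPA4-KO, against 12.17, 12.36, 11.67 and 12.42 in WT. The SD was 0.09 in LPA4-KO and 0.34 in WT, or 0.13 in WT without WT 3. The difference was 0.24 ± 0.17 (SE, limma adjusted p = 0.460 over all genes). The type V chains, which set fibril width, differed by 0.03 for Col5a1, -0.08 for Col5a2 and -0.06 for Col5a3 and did not pass. The cartilage collagens Col2a1 and Col11a2, with Col11a1, Col24a1 and Col27a1, were near constant at the gene level.

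Type VI collagen is secreted as a unit of Col6a1, Col6a2 and Col6a3, and the carboxy end of the Col6a3 chain is released as endotrophin. Col6a1 had 9.41, 9.63, 9.41 and 9.47 in LPA4-KO, against 9.44, 9.69, 9.26 and 9.72 in WT. Col6a2 had 9.59, 9.73, 9.49 and 9.55 in LPA4-KO, against 9.56, 9.71, 9.28 and 9.79 in WT. For both, the LPA4-KO values lay within the WT range. Col6a3 had 10.53, 10.74, 10.58 and 10.32 in LPA4-KO, against 10.38, 10.50, 10.15 and 10.60 in WT, with overlapping groups. The differences were -0.05, 0.01 and 0.14, and the 95% confidence intervals lay between -0.33 and 0.45. Over all genes 0 of 5 type VI genes passed in limma, beside 4.03% of all genes. At an unadjusted limma p under 0.05 there were 0 of 5, beside 4172 of 18193 genes. Col6a4 and Col6a5 were near constant.

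**Figure D3:**
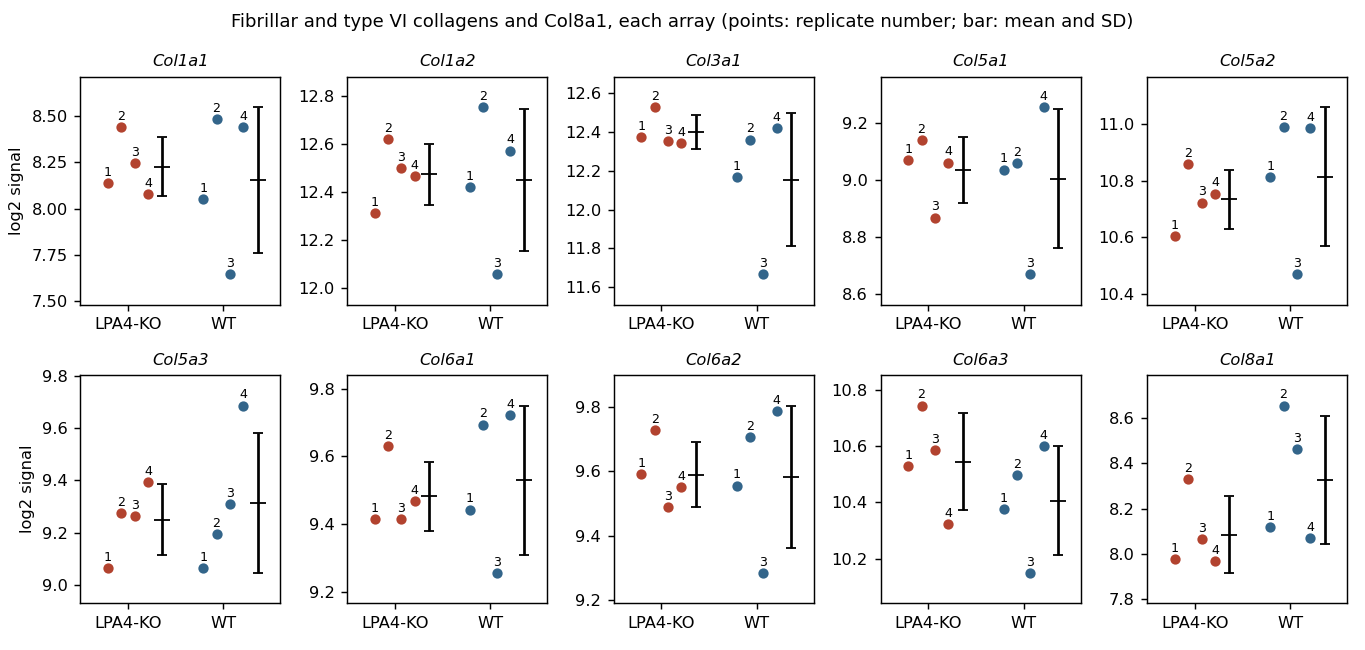
Log2 signal (y axis) of 6 fibrillar and 3 type VI collagen genes and of Col8a1 in every array, LPA4-KO left and WT right in each panel. Points carry the replicate number and the bar to the right of each group is its mean and SD (n = 4). WT 3 is the lowest of the 8 arrays in 8 of the 9 fibrillar and type VI genes, and the genotypes overlap in all 10 panels.

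The array of WT 3 stood apart for these genes. It was the lowest of all 8 arrays for 8 of the 9 varying fibrillar and type VI genes, Col5a3 being the exception, beside 26.7% of all varying genes. It was also lowest in WT for its sums of fibroblast and progenitor markers (15.03, against 15.18 to 15.24 in the other WT mice) and of macrophage markers (12.59, against 13.18 to 14.01). Whether the collagen values and these sums share a source was not tested. Without WT 3, 7 of these 9 genes were lower in LPA4-KO, against 3 of 9 with it. The sign turned for Col1a1 (-0.10), Col1a2 (-0.11), Col5a1 (-0.08) and Col6a2 (-0.09), the difference for Col3a1 shrank to 0.08, and 0 of the 9 passed either way. Leaving out WT 3 left Col4a1 at -0.40, Col4a2 at -0.41, Col4a3 at -0.82 and Col4a4 at -0.70, all 4 still passing among varying genes (limma adjusted p from 0.00664 to 0.0405).

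Among 9 FACIT collagens 2 varied. Col14a1, or undulin, which coats fibrils in skin, tendon and the fibroblast-rich parts of fat, had 8.35, 8.30, 8.59 and 8.42 in LPA4-KO, against 7.87, 7.83, 6.84 and 7.66 in WT. All LPA4-KO values lay above all WT values, and WT 3 was far below the rest. Beside it, 18.2% of all varying genes were higher without overlap. The difference was 0.86 ± 0.24 (SE, limma adjusted p = 0.103 over all genes). In the fit on varying genes the limma adjusted p was 0.0261, and 0.0605 with the replicate block, which ended that call. Without WT 3 the difference was 0.63 (limma adjusted p = 0.0521 in the fit on all genes, 0.0106 in that on varying genes). Col16a1 differed by -0.18 without passing, and Col9a1, Col9a2, Col9a3, Col12a1, Col19a1, Col20a1 and Col22a1 were near constant.

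Of the 9 other collagens only Col8a1, a short-chain network former of vessel walls, varied. It ran from 7.97 to 8.33 in LPA4-KO and from 8.07 to 8.66 in WT, a difference of -0.24, lower in LPA4-KO in all 4 number pairs. It did not pass over all genes (limma adjusted p = 0.431), or among varying genes without (0.235) or with the replicate block (0.0667). The hypertrophic cartilage collagen Col10a1, the anchoring fibril collagen Col7a1, the membrane-spanning Col13a1, Col17a1, Col23a1 and Col25a1, and Col8a2 and Col26a1 were near constant.

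Several collagen genes have more than 1 probe set, and these agreed in direction. Of 42 genes 27 had at least 2 probe sets, and 13 genes had at least 2 that varied. In all 13 the varying probe sets of a gene shared 1 sign, with varying sizes: Col4a1 differed by -0.40 and -0.15, Col4a3 by -0.74 and -0.21, Col4a4 by -0.62 and -0.77, and Col14a1 by 0.86 and 0.94. Over all 45101 probe sets 4 of the 82 passed in limma, beside 0.953% of all probe sets lower, 1.02% higher and 1.98% together. They were both of Col4a3 that varied (limma adjusted p = 0.0358 and 0.0497), 1 of Col4a4 (0.0475) and the near-constant one of Col23a1 (0.0467). The second Col4a3 probe set was dim, with means of 6.47 in LPA4-KO and 6.68 in WT, under the median of all values, 6.73. The size of its difference is not exact.

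For 2 genes the probe set with the highest mean was near constant while another varied, so the gene value did not reflect the varying one. Col11a1, a minor fibrillar chain, had 5.54, 5.79, 5.75 and 5.62 in LPA4-KO on its second probe set, against 5.94, 6.41, 6.46 and 5.87 in WT. The groups did not overlap on it. Its means of 5.68 in LPA4-KO and 6.17 in WT lay under the median of all values, 6.73. This probe set was therefore dim, and the size of its difference is not exact. That difference of -0.49 passed among varying probe sets (limma adjusted p = 0.0420, beside 13.2% of varying probe sets lower), also with the replicate block (0.0363), but not over all probe sets (0.156). A Col12a1 probe set differed by -0.56 with overlapping groups and did not pass (limma adjusted p = 0.148 among varying probe sets). In total 48 of the 82 probe sets were near constant. Of the 34 varying ones 10 passed, 3 higher and 7 lower, beside 12.5% higher, 13.2% lower and 25.6% together of all varying probe sets. With the replicate block 1 passed as higher and 6 as lower, beside 8.04% higher, 8.35% lower and 16.4% together. Groups did not overlap in 2 higher and 7 lower probe sets, beside 15.6% higher and 16.9% lower.

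**Figure D4:**
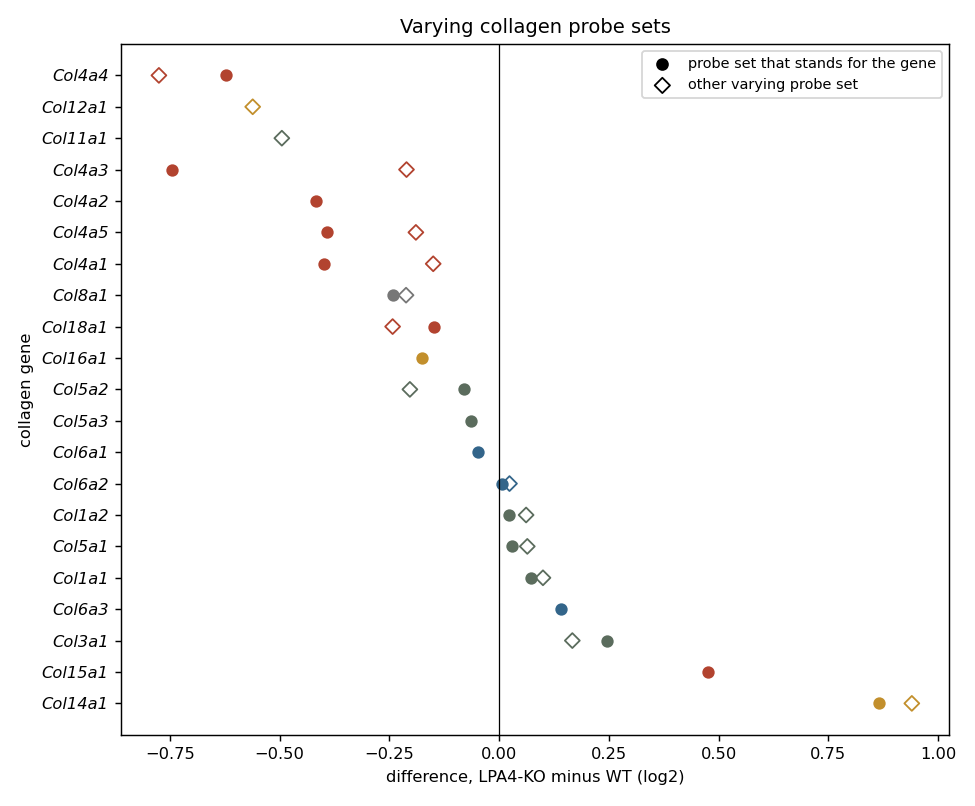
Difference between LPA4-KO and WT (log2, x axis) of the 34 varying collagen probe sets, by gene. Filled circles are the probe set that stands for the gene, open diamonds its other varying probe sets, coloured by class as in the plot of differences by class. Diamonds and circles of a gene lie on the same side of 0 in all 13 genes that have both kinds or more than 1 varying probe set, and Col11a1 and Col12a1 have a diamond alone.

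The arrays also divided by replicate number. The log2 sum of 12 skeletal muscle markers ran from 13.08 to 13.87 in numbers 1 and 2 of both genotypes, against 10.49 to 11.47 in numbers 3 and 4. Muscle fibres carry basement membranes of their own, and the type IV differences are given within each division. A part of muscle in them was not tested. In numbers 1 and 2 they were -0.33 for Col4a1, -0.36 for Col4a2, -0.76 for Col4a3 and -0.72 for Col4a4. In numbers 3 and 4 they were -0.46, -0.47, -0.73 and -0.53 in the same gene order. Col14a1 differed by 0.48 in numbers 1 and 2 and by 1.25 in numbers 3 and 4, and Col15a1 by 0.55 and 0.40. Of the 19 varying collagen genes 14 had the same sign in both divisions. For Col4a1 to Col4a4 and Col14a1 the genotypes do not overlap over all arrays, so their signs within a division were fixed in advance. These genes are among the 14. With 2 mice per genotype 0 genes passed in limma in either division, where 2070 and 2014 genes, 5 and 4 of them collagens, had an unadjusted p under 0.05.

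Summed markers of some cell types that basement membranes surround differed between genotypes, in both directions. The adipocyte sum was higher in LPA4-KO (15.68 to 15.75) than in WT (15.56 to 15.61) without overlap. By their means 4 varying adipocyte members were higher and 3 lower. The log2 sum of 7 Schwann cell markers ran from 11.22 to 11.81 in LPA4-KO and from 11.94 to 12.65 in WT, where 5 of the 7 varied and all 5 were lower without overlap, beside 15.0% of all varying genes; Sox10 and Ngfr were near constant. That of 9 pericyte and smooth muscle markers ran from 12.52 to 12.74 in LPA4-KO and from 13.18 to 13.33 in WT, with 2 of 8 varying members lower without overlap, beside the same 15.0%. Those were Acta2, the brightest WT member (-1.26), and Tagln (-0.48), while Rgs5 (0.12), Cspg4 (0.01) and Notch3 (0.04) lay slightly higher in LPA4-KO without passing. That of 9 blood endothelium markers ran from 12.19 to 12.44 in LPA4-KO and from 12.39 to 12.62 in WT and overlapped. Of 8 varying endothelium members 7 were lower by their means and 1 was higher. Without overlap 2 of the 8 were lower, beside the same 15.0%. In the limma fit on varying genes 4 of the 8 passed as lower, beside 12.2% of all varying genes. Fibroblast and progenitor markers (10 genes) ran from 15.08 to 15.23 in LPA4-KO and from 15.03 to 15.24 in WT. Controls for 18S ribosomal RNA (3 probe sets) were higher in every LPA4-KO array than in any WT array, with differences in means of 0.44, 0.22 and 0.28. Of the 3 Lpar4 probe sets, 1 had 5.81 ± 0.07 in LPA4-KO and 6.93 ± 0.10 in WT (SD, n = 4 each, limma adjusted p = 0.0104), and the others were 0.71 and 0.53 higher in LPA4-KO without passing; their place relative to the deleted part is not known here. The part of these shifts in the collagen differences was not tested.

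Transcripts for some partners of type IV collagen in basement membranes were lower too. Of 15 measured partner genes 9 varied, 6 (such as Lamb1 and Agrn) were near constant, and 3 fell over all genes, beside 1.64% of all genes lower. Hspg2, which encodes perlecan, had 8.60, 8.66, 8.54 and 8.52 in LPA4-KO, against 8.83, 8.90, 9.01 and 8.97 in WT, with no overlap. The 3 were Hspg2 (-0.34 ± 0.05, SE, limma adjusted p = 0.0287), the laminin chain Lamb2 (-0.35 ± 0.05, 0.0300) and the laminin chain Lama5 (-0.29 ± 0.05, 0.0408). Among varying genes, with and without the replicate block, 5 of 9 passed, all lower, beside 12.2% lower without and 9.24% with it. The added members were the integrin ligand Npnt (-0.50) and the adipocyte and vessel laminin chain Lama4 (-0.40), the last chosen after its values were seen. Nidogen 1, which bridges laminin and type IV collagen, had a Nid1 difference of 0.01, and Lama2, the muscle and nerve laminin, one of 0.03. The median difference over the 9 that varied was -0.29.

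Genes that process or bind collagen were taken by list. Among 6 crosslinking genes 0 passed in limma over all genes (2 at an unadjusted p under 0.05, as had 4172 of all 18193 genes) and 2 of 4 varying ones were lower among varying genes, beside 12.2% of all varying genes. Lysyl oxidase, the enzyme that starts the covalent crosslinks of collagen and elastin, had a Lox signal of 9.56, 10.23, 9.98 and 10.61 in LPA4-KO, against 10.89, 11.20, 11.05 and 11.42 in WT. The groups did not overlap, and LPA4-KO mice differed more among themselves (SD 0.44) than WT mice (SD 0.22). The Lox difference was -1.05 ± 0.24 (SE), at limma adjusted p = 0.0669 in the fit on all genes, 0.0154 in that on varying genes and 0.0192 there with the replicate block. The transglutaminase Tgm2 differed by -0.48 (limma adjusted p = 0.0202 among varying genes, 0.0658 there with the block), whereas Loxl1 differed by 0.04.

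Among 14 genes of hydroxylation and glycosylation 5 varied and 1 passed as higher among varying genes, beside 14.9% of all varying genes (10.3% with the block): Crtap, part of the complex of prolyl 3-hydroxylase, was 0.27 higher (limma adjusted p = 0.0246, or 0.0482 with the replicate block, and 0.0705 over all genes). The folding and export list had 8 genes, 7 of them varying, and 0 passed in limma over all genes or among varying genes. Beside this stand 4.03% of all genes and 27.1% of varying genes. At an unadjusted limma p under 0.05 there were 2 in each fit, beside 4172 of 18193 genes and 2254 of 5173 varying genes. With the block among varying genes Creb3l1, a transcription factor of collagen secretion, passed as lower (-0.37, limma adjusted p = 0.0384), beside 9.24% of varying genes. Serpinh1, the collagen chaperone, differed by 0.13 without passing. Of 6 genes for procollagen trimming, 3 of them varying, 0 passed in limma in the fits on all and on varying genes. At an unadjusted limma p under 0.05 there were also 0, beside the same 4172 of 18193 and 2254 of 5173 genes. Bmp1 differed by 0.01 and Pcolce by 0.03. Among 11 receptors and uptake genes 7 varied and 1 passed as lower among varying genes, beside 12.2% of all varying genes (9.24% with the block): Itgb1, the common beta chain of the collagen-binding integrins, was lower (-0.38, limma adjusted p = 0.0195, or 0.0360 with the block, and 0.0696 over all genes), and the collagen receptor kinases Ddr1 and Ddr2 differed by 0.02 and 0.17 without passing.

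**Figure D5:**
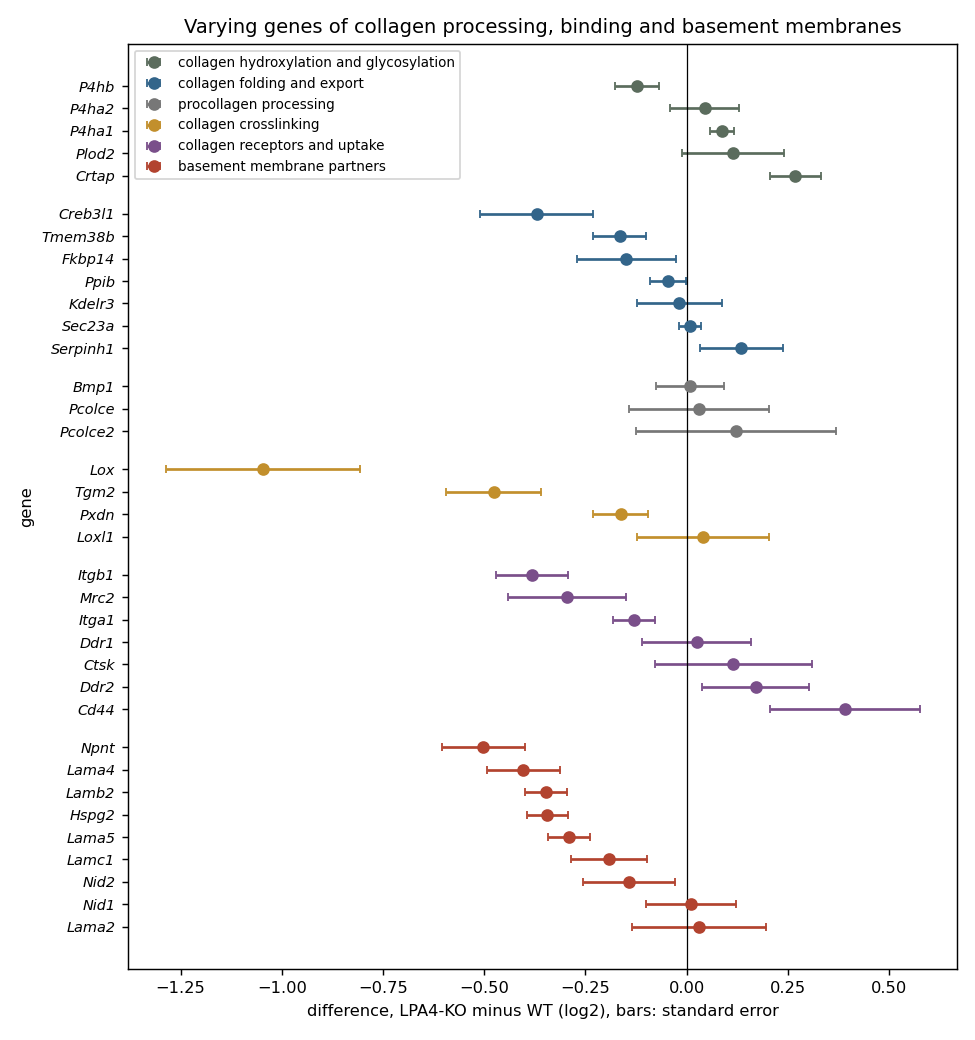
Difference between LPA4-KO and WT (log2, x axis) of the 35 varying genes of collagen processing, crosslinking, binding and basement membranes, grouped by list, with bars of 1 standard error from the fit over all genes (n = 4 mice each). Lox lies farthest left at -1.05, and 5 basement membrane partners lie between -0.50 and -0.29.

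Across these 6 lists 60 of 66 listed genes were measured and 35 varied. In all, 0 were higher and 3 lower over all genes, and 1 was higher and 8 lower among varying genes, both without and with the replicate block. Beside these stand 2.39% higher and 1.64% lower of all genes, 14.9% higher and 12.2% lower of varying genes, and 10.3% and 9.24% of varying genes with the block. Lama4, chosen after its values were seen, is among the 8 lower genes, so that choice raised their count. All 6 lists were written with earlier results of these data known, so their counts are not independent of the data.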

How the data were processed

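Gene expression in inguinal fat was measured with 1 array for each of 8 mice, 4 LPA4-KO and 4 WT, grouped by sample title. Per the labels, 100 ng of total RNA was labelled with biotin. The authors deposited log2 values for 45101 probe sets, and the only tool in the submitters' processing notes is R 2.14.0. For background correction, normalisation and summarisation the step is not given in the sources used here. A log2 scale was read from the values (4.93 to 14.3, array medians 6.73 to 6.74). Of the probe sets 78.7% were near constant (SD under 0.01), for reasons not known here.

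The platform annotation gave 34945 probe sets 1 gene, 932 several and 9160 none, with 64 controls. limma 3.58.1 in R 4.3.3 (lmFit, eBayes) compared genotypes without a block. Same-numbered mice deviated together (correlations 0.315, 0.486, 0.189 and 0.244, all over 0.1), which met the rule for pairs from the data alone. Some different numbers correlated as much (LPA4-KO 3 with WT 4 0.364, LPA4-KO 4 with WT 3 0.266, LPA4-KO 2 with WT 1 0.220), and every correlation between numbers 1 or 2 and numbers 3 or 4 was below 0. Per-array values are given for varying collagens that passed a fit without or with the block or differed by at least 0.2 without overlap, and for 8 abundant chains; of other lists, up to 4 passing members are named. In simulated data for this comparison 200 varying genes were changed, with noise drawn independently for each gene. There, differences of 0.4 were recovered for 28.5% of changed genes with all 18193 genes, and for 58% with 5173 varying genes. More genes passed in the real comparison, and its genes do not vary independently, so these shares may not hold for it. The members, classes, lists and tests were chosen with earlier results of these data known. Alternatives covered probe sets, normalisation, dim genes, the variance model, blocks and leaving out arrays. The number of arrays limits the precision.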

Additional observations from a re-analysis of the deposited data

Results flagged for a closer look

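Among the 38 groups of 4 arrays checked over the 19 varying collagen genes, 1 held an array far from the other 3, where chance gives about 1 in 20. It was Col4a4 in WT 3, at 7.93, while the other WT mice lay between 8.23 and 8.24. The value is above every LPA4-KO value, so the groups remain apart with it.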

How the results depend on the processing

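The count of 3 collagen genes passing over all genes became 6 among varying genes only, 4 there with the replicate block, 0 with the block over all genes, 1 with numbers 1 and 2 against 3 and 4 as a term, and 0 with numbers 1 and 2 only or 3 and 4 only (the last 2 settings chosen after seeing the data, 2 mice per genotype). Leaving out 1 array gave 0 to 2. Over all genes Col4a3 and Col4a4 kept passing only without WT 3 (limma adjusted p = 0.0319 and 0.0430), and among varying genes without any 1 array (0.00664 to 0.0206 and 0.00853 to 0.0292). There Col4a1 was lost only without LPA4-KO 3 (0.0543). Col14a1 was lost without LPA4-KO 1, 3 or 4 and Col15a1 without LPA4-KO 1, LPA4-KO 3 or WT 3. The 733 passing genes became 1402 among varying genes, 0 with the replicate block, 0 in either division by number, and 10 to 253 without 1 array. The 3 passing pathway genes became 9 among varying genes, 9 there with the replicate block, 0 with it over all genes, 6 with the mean of all probe sets, 5 without dim genes, 0 in either division and 0 to 2 without 1 array. The 4 passing collagen probe sets became 10 among varying probe sets, 7 there with the replicate block, 0 with it over all probe sets and 0 to 1 without 1 array. Small differences turned sign. Leaving out 1 array moved Col1a1 between -0.10 and 0.18, Col1a2 between -0.11 and 0.12, Col6a1 between -0.138 and 0.0176 and Col6a2 between -0.0934 and 0.0741. Col1a2 was -0.12 in numbers 1 and 2 only, and Col6a2 was -0.0167 in numbers 3 and 4 only. The causes were not tested. Col4a1, Col4a2, Col4a3 and Col4a4 stayed lower, and Col14a1 and Col15a1 higher, in every setting run, although their calls did not hold in every setting. For all of them but Col15a1 the groups do not overlap, so leaving out arrays could not turn the sign. Blocks, gene filters and the variance model leave the difference itself unchanged. The constant signs are therefore little evidence of stability.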
